A study of Homo sapiens with 14 samples.

Results

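Long intergenic noncoding RNAs were followed across drug treatments of 2 human cancer cell lines. They were the genes that carry a LINC symbol (the letters LINC followed by a number) and that were selected on their read counts, 30 or more reads in at least 2 of the 14 libraries. Of 2267 genes with a LINC symbol among the 60683 genes in the files, 1359 had at least 1 read and 215 met this rule. By comparison, 14678 of all genes had as many reads in as many libraries. The lines were A549, a lung cancer line, and SUM159, a breast cancer line. A549 was left untreated or was given 2 μM palbociclib, 0.5 μM indisulam or the combination of both drugs, each for 10 days, or 0.5 μM PF-06873600 for 7 days. SUM159 was left untreated or was given 0.5 μM PF-06873600 for 7 days. Palbociclib inhibits the cyclin-dependent kinases CDK4 and CDK6, PF-06873600 inhibits CDK2 as well, and indisulam is a sulfonamide that directs the splicing factor RBM39 to degradation. The study used these drugs to ask which treatments bring cancer cells into senescence. When the untreated cells were collected is not given in the sources used here. Each group had 2 libraries, which the submitters call technical duplicates, so p-values here measure only the spread between libraries and may be too small for separate cultures.

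Long noncoding RNAs are transcripts that are capped, spliced and often polyadenylated like messenger RNAs but hold no long reading frame. Some act in the nucleus, on chromatin or on neighbouring genes, and others in the cytoplasm. A LINC number is a placeholder symbol for such a gene that lies between protein-coding genes, so the symbol says nothing of function, and for most members no role is given here. As a class they are transcribed at low levels and differ strongly between cell types. Libraries were made from polyadenylated RNA, so noncoding transcripts without a poly(A) tail lie outside the measurement.

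The libraries held from 13060374 to 21149256 reads on genes, and 3 reads, the smallest level taken as measurable, corresponded to 0.142 to 0.230 CPM (reads scaled to the library's total on genes). This limit covers counting error only. The deepest libraries were those of SUM159 with PF-06873600 (17106664 and 21149256). Epithelial keratins marked A549, with KRT8 at 1908 to 5680 CPM, although the lung lineage factor NKX2-1 did not pass 0.451 CPM and the surfactant gene SFTPB was at 0. Vimentin marked SUM159, at 3609 to 4318 CPM against 628 to 1792 CPM in A549. The receptors ESR1 and PGR were near absent in both lines, at no more than 0.662 CPM. ERBB2 was present in both, at 118 to 130 CPM in SUM159 and 109 to 166 CPM in A549. Among markers of other cells, the endothelial gene PECAM1 (10.9 to 27.6 CPM) and the leukocyte gene PTPRC (9.35 to 20.3 CPM) were present in SUM159, whereas CDH5 and CD68 did not pass 0.946 CPM in that line. Their part in the results below was not tested.

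The members lay on 23 chromosomes, with most, 18, on chromosome 7. The annotation classed 207 as long noncoding RNA genes and 8 as transcribed pseudogenes. Median exon length, with overlapping exons merged, was 4059 bases. As many as 39 members had 30 or more reads in all 14 libraries, and 49 in exactly 2. The rule had a sharp edge. LINC01012 (29 reads in its second highest library) and LINC01152 (29) fell just outside, LINC00239 (30) and LINC01348 (30) just inside, and 21 genes had 25 to 29 reads where 22 had 30 to 34.

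Per kilobase of exon, the mean level over all libraries was highest for LINC02154 (44.4 CPM per kb) and LINC02582 (39.98 CPM per kb). LINC00888, LINC00680 and LINC00674 followed at 22.7, 21.3 and 16.6 CPM per kb. Each of these 3 is a transcribed pseudogene with few exonic bases, and LINC00888 also overlaps gene models of the small nucleolar RNAs SNORA63D and SNORA63E, so reads of related or overlapping copies may be counted on them or lost. LINC00294, LINC02381 and LINC02870 came next, at 9.78, 8.47 and 7.45 CPM per kb. The leading pair were opposites by cell line. LINC02582 (ENSG00000261780, chr18:73324941-73349879, + strand, hg38) stood at 189 and 191 CPM in untreated A549 and at 0.603 and 0.501 CPM in untreated SUM159. LINC02154 (ENSG00000235385, chrX:13266041-13303452, - strand, hg38) had 2 and 0 reads in untreated A549 and 393 and 345 reads in untreated SUM159.

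Detection in a group meant 30 or more reads in both of its libraries. By this measure 100 members were detected in untreated A549, 92 with palbociclib, 104 with indisulam, 110 with the combination and 95 with PF-06873600. In SUM159, 86 were detected in untreated cells and 139 with PF-06873600. The selection used the same reads, so these counts are a description. After every library was thinned to 13060374 reads, the counts were 93, 87, 96, 104 and 85 in the A549 groups in the same order, and 73 and 111 in SUM159. Members made up 0.733% of all genes detected in untreated SUM159 and 1.09% with PF-06873600, against 0.763% to 0.870% in the A549 groups.

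Of the 215 members, 39 were detected in all 7 groups, 66 in groups of both lines, 69 in A549 alone and 76 in SUM159 alone. The remaining 4 had their reads spread so that no group had both libraries at 30. In SUM159, 56 members were detected with PF-06873600 and not without it, and 3 the other way. In A549 the combination gained 27 members over untreated cells and lost 17, and PF-06873600 gained 12 and lost 17. Detection in a single group was found for 62 members, and for 43 of them that group was SUM159 with PF-06873600.

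Summed over the members, the level was 1421 and 1392 CPM in untreated A549 and 1170 and 1162 CPM with PF-06873600, without overlap. In SUM159 it was 887 and 963 CPM in untreated cells and 1672 and 1646 CPM with PF-06873600. LINC02154 alone gave 365 and 370 CPM of the latter. Without the 3 members of highest mean CPM (LINC02582, LINC02154 and LINC02864), the mean over libraries was 901 ± 55.2 CPM (SD, n = 2) in untreated SUM159 and 1291 ± 21.7 CPM with PF-06873600. With 2 libraries a side, the smallest two-sided p of an exact permutation test is 0.33, so these sums were not tested. The members were chosen on reads in these same libraries, and 43 were detected only in SUM159 with PF-06873600. The rule thus favours the sum of that group, and the sums are a description.

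**Figure D1:**
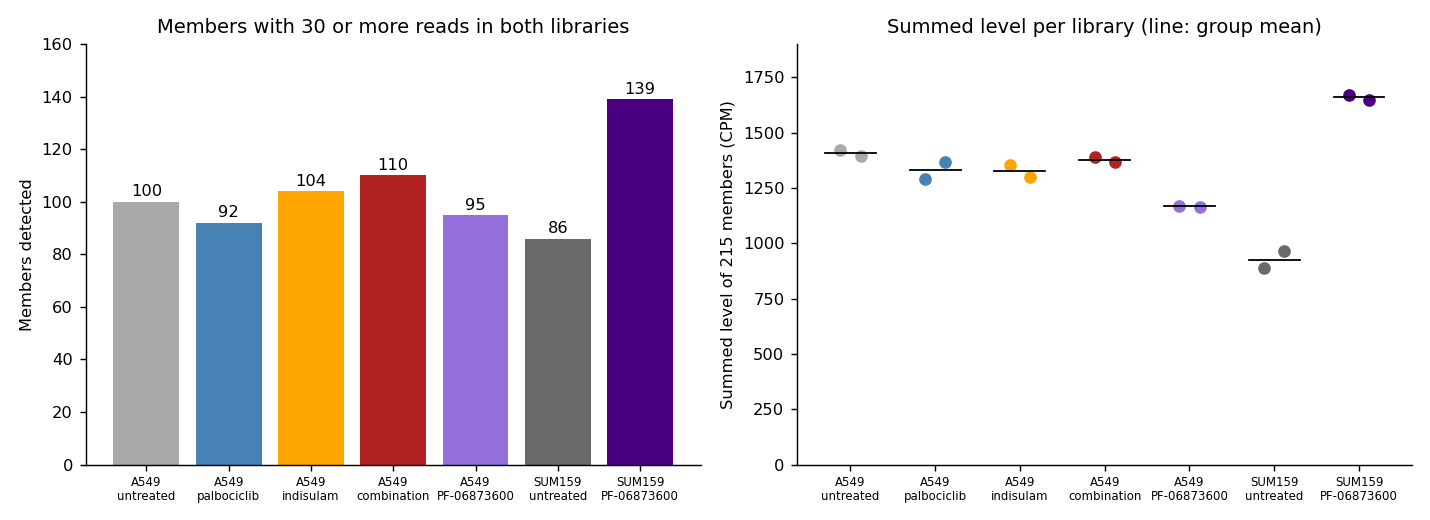
Left, the number of members with 30 or more reads in both libraries of each group (bars). Right, the summed CPM of all 215 members in each library (points) with the group mean (line), where SUM159 with PF-06873600 lies highest (1672 and 1646 CPM) and untreated SUM159 lowest (887 and 963 CPM). The members were chosen on reads in these libraries, so both panels are a description.

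More members differed between the lines than with any treatment. Against untreated A549, 84 of the 215 members were higher and 103 lower in untreated SUM159 (edgeR's quasi-likelihood test, Benjamini-Hochberg adjusted p under 0.05). Over all 17279 genes tested, 41.9% were higher and 36.8% lower. Since a member could meet the rule through 1 line, these counts are descriptive. By reads, 9 members had 30 or more reads in each A549 library and 3 or fewer in each SUM159 library, and 16 showed the reverse.

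Among the A549 members of that kind, LINC02864 was the most abundant (chr18:73151241-73264480, - strand, in the region that also holds LINC02582). It had 1766 and 1964 reads in untreated A549 and 516 to 944 reads with the combination or PF-06873600, against 2 or 3 reads in each SUM159 library. LINC01559 had 322 to 609 reads over the A549 libraries, LINC02532 had 197 to 473, LINC02506 had 98 to 209 and LINC02747 had 36 to 373. Among the SUM159 members, LINC02056 had 46 and 36 reads in untreated cells and 481 and 583 with PF-06873600. LINC01287 had 155 to 238 reads over the SUM159 libraries, LINC00165 had 88 to 157, LINC02476 had 57 to 148 and LINC02616 had 74 to 124. In A549 none of these 5 passed 1 read in a library.

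Treatments were then compared within each line, in a model of all 10 A549 libraries and a model of the 4 SUM159 libraries. The test for low counts kept 160 members of 15780 genes in A549 and 168 members of 15055 genes in SUM159. The members left out, 55 in A549 and 47 in SUM159, had too few reads in that line. In the comparisons of a treatment with untreated cells or of 2 A549 treatments, each member called had library values that did not overlap between the groups. Overlap was not counted over all genes called, so this cannot be called particular to the members. For palbociclib 6 members were higher and 9 lower, beside 8.30% and 7.40% of all genes. For indisulam 41 were higher and 27 lower, beside 28.0% and 17.5%. For the combination 57 were higher and 48 lower, beside 35.1% and 30%. For PF-06873600 in A549 44 were higher and 50 lower, beside 28.5% and 27.8%. The members' shares in the A549 comparisons lay within 4.55 percentage points of those of all genes. The widest gap was for palbociclib, where 3.75% of the members were higher. With TMM scaling, which moved the median of all genes for indisulam from 0.08 to 0.00, the indisulam calls were less skewed upward (higher for 51.4% of member calls and 50.4% of the calls over all genes, against 60.3% and 61.6% with total counts). The largest changes named below are those among called members whose higher group averaged 2 CPM or more.

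**Figure D2:**
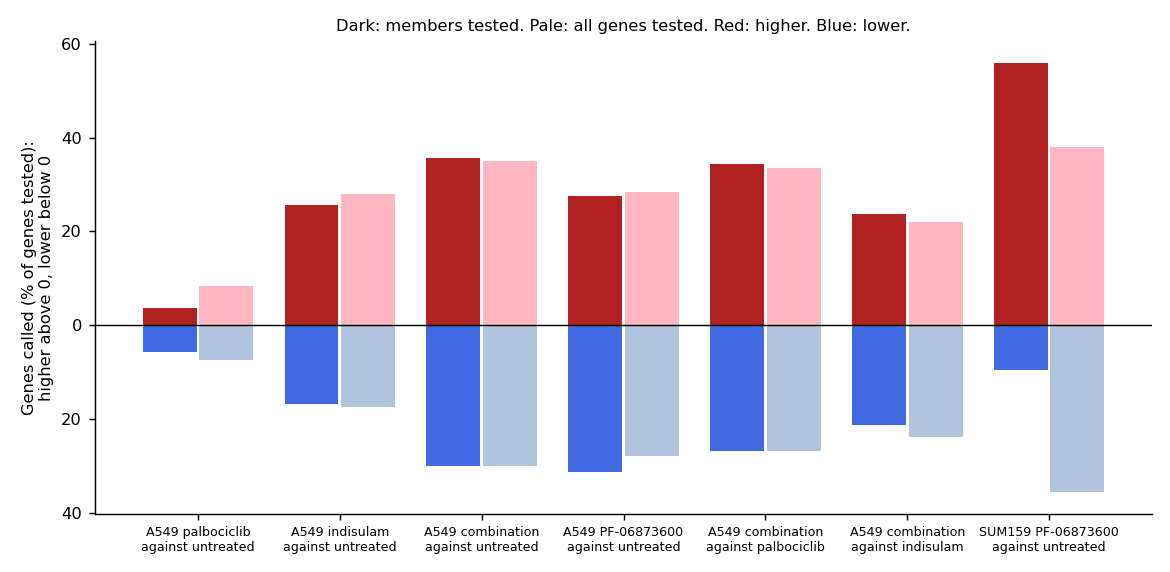
Share of genes called higher (red, above 0) or lower (blue, below 0) at an adjusted p under 0.05, in percent of those tested, for the members (dark) and for all genes (pale) in 7 comparisons. Bars of members and of all genes differ by at most 4.55 percentage points in A549, and in SUM159 with PF-06873600 the members reach 56.0% higher and 9.52% lower, beside 38.1% and 35.6% of all genes.

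Palbociclib alone moved few members. Those named in this paragraph had larger log2 fold changes in the same direction with the combination and with PF-06873600, though not all with indisulam. These comparisons share the untreated libraries, and of these treatments only the combination was tested against palbociclib. LINC01914 had 7 and 8 reads in untreated A549, 30 and 30 with palbociclib, 38 and 35 with indisulam, 33 and 35 with the combination and 36 and 66 with PF-06873600. It rose with palbociclib by a log2 fold change of 1.98 ± 0.36 (SE, adjusted p = 0.00172). LINC01133 (log2 fold change 0.88 ± 0.24), LINC00973 (0.76 ± 0.22) and LINC02577 (0.58 ± 0.14) rose less. LINC02882, LINC00342, LINC01270 and LINC01547 fell by 1.22, 1.13, 0.92 and 0.83 on the log2 scale. LINC00342 varied most between libraries, with 251 and 181 reads in untreated cells and 62 and 139 with palbociclib. The call of LINC01133 was lost without any 1 of the 2 untreated and 2 palbociclib libraries (edgeR adjusted p from 0.057 to 0.0998). That of LINC00973 was lost without the first palbociclib library (adjusted p = 0.215) or either untreated one, LINC02577 without the first palbociclib or first untreated library, LINC02882 without the first palbociclib library and LINC01547 without the second. Without the second palbociclib library fewer members were called, as were fewer of all genes.

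With indisulam the members rose and fell in larger steps. LINC02154 had 2 and 0 reads in untreated A549, 1 and 1 with palbociclib and 48 and 60 with indisulam, a ratio of pooled levels of 54.2 against untreated cells (95% exact binomial interval 14.6 to 453, counting error only). LINC02086, which starts 13351 bases from HOXB7 and runs away from it, had 4 and 7 reads in untreated cells and 74 and 59 with indisulam (log2 fold change 3.57 ± 0.34, adjusted p = 1.06e-06). LINC00460 (ENSG00000233532, chr13:106374477-106384315, + strand), an RNA widely studied as growth-promoting in carcinomas, rose from 8 and 9 reads to 41 and 50. LINC02882, LINC00993, LINC03068 and LINC00886 were the members that fell most, by 2.41, 1.57, 1.51 and 1.45 on the log2 scale. LINC03068 went from 177 and 143 reads to 61 and 51. The share of reads falling on no annotated gene was 5.09% to 5.99% in the indisulam and combination libraries and 4.41% to 5.10% in untreated A549. With palbociclib it was 3.87% and 5.20%, and with PF-06873600 in A549 4.35% and 4.10%, so libraries of a single group could differ widely. The part of this share in the changes above was not tested.

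The combination gave the largest single change among members in A549. LINC02154 reached 1312 and 1359 reads, or 93 and 87.5 CPM, above LINC02582 in the first combination library and level with it in the second. Both combination libraries were above both libraries of every other A549 group. The pooled ratio to untreated cells was 1339 (95% exact binomial interval 370 to 11061, from 2 reads in untreated cells), and against indisulam alone the log2 fold change was 4.63 ± 0.13 (adjusted p = 5.1e-12). LINC02154 is listed in a senescence gene set that the study used, and its rise was known when the members were chosen, so it is no independent evidence here. LINC01164 had 1 and 0 reads in untreated cells, 8 and 9 with indisulam, 103 and 101 with the combination and 6 and 8 with PF-06873600. LINC00665 had 3 and 0 reads in untreated cells, 63 and 61 with the combination and 54 and 53 with PF-06873600. LINC02073 had 2 and 0, 46 and 34, and 33 and 53 reads in the same groups.

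Of the abundant members, several fell with the combination. LINC02582 went from 189 and 191 CPM to 78.9 and 87.7 (log2 fold change -1.19 ± 0.07, adjusted p = 9.39e-10), and LINC02864 from 120 and 131 CPM to 57.3 and 60.8. LINC02870 had 448 and 337 reads in untreated cells, 446 and 525 with palbociclib, 393 and 389 with indisulam, and 88 and 106 with the combination. The combination libraries lay below all others, and against indisulam the log2 fold change was -2.01 ± 0.14 (adjusted p = 4.68e-08). LINC00993, LINC03068, LINC02882 and LINC01697 were the members with the largest falls, by 3.03, 2.73, 2.41 and 2.07 on the log2 scale. In the opposite direction LINC00294 had 345 and 370 reads in untreated cells, 744 and 760 with indisulam and 946 and 1057 with the combination (log2 fold change 1.49 ± 0.07, adjusted p = 2.67e-10).

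Whether the combination differed from each drug alone was tested directly. Against palbociclib 55 members were higher and 43 lower, beside 33.5% and 26.9% of all genes. Against indisulam 38 were higher and 34 lower, beside 22.0% and 23.9%. LINC02747 rose against both, from 36 and 69 reads with palbociclib and 163 and 163 with indisulam to 357 and 373. LINC02532 fell against palbociclib (log2 fold change -0.91 ± 0.09, adjusted p = 7.58e-07), and against indisulam its change was -0.10 ± 0.10 (adjusted p = 0.439). LINC01914 showed little difference from either drug (0.19 ± 0.26 and -0.10 ± 0.25, adjusted p = 0.559 and 0.768).

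PF-06873600 in A549 changed members in both directions about equally. LINC00707 (ENSG00000238266, chr10:6779549-6842906, + strand), studied in lung adenocarcinoma, had 80 and 73 reads in untreated cells, 118 and 127 with the combination and 281 and 336 with PF-06873600, a log2 fold change of 2.03 ± 0.12 (adjusted p = 4.57e-09). LINC00973 stood at 1.84 and 1.93 CPM without treatment and at 13.1 and 11.7 CPM with PF-06873600 (2.71 ± 0.18, adjusted p = 1.23e-08). LINC02073, LINC00665, LINC01602 and LINC00460 had the largest rises. LINC01602 went from 7 and 1 reads to 28 and 35, and LINC00460 from 8 and 9 to 49 and 79. LINC02864 fell from 120 and 131 CPM to 39.5 and 44.1 (log2 fold change -1.58 ± 0.08, adjusted p = 3.68e-10). LINC00993, LINC03068, LINC02882 and LINC01355 fell most, by 3.13, 2.17, 1.98 and 1.90 on the log2 scale. The 7 days and the dose of PF-06873600 differ from those of the other A549 treatments, so its values are given beside theirs without a test.

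**Figure D3:**
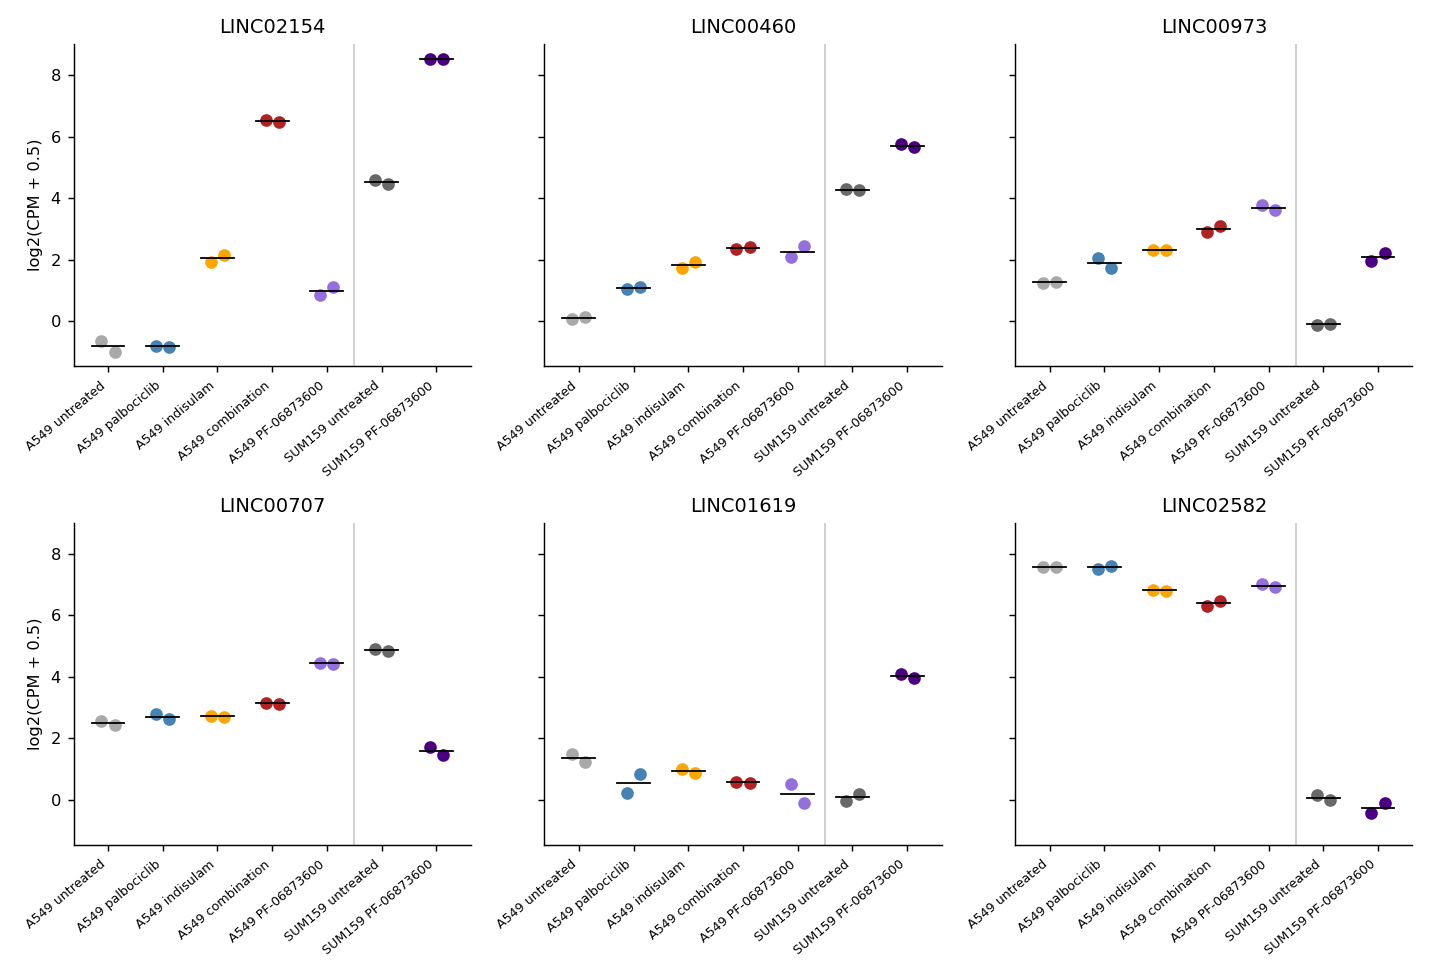
Level of 6 members in each library, as log2(CPM + 0.5), by group (points, with the mean of both libraries as a line). LINC02154 is near 0 CPM in untreated A549 and at 93 and 87.5 CPM with the combination, and LINC00707 and LINC01619 move in opposite directions in A549 and SUM159 with PF-06873600.

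SUM159 was different. With PF-06873600, 94 of 168 members tested were higher and 16 lower, or 56.0% and 9.52%, beside 38.1% and 35.6% of the 15055 genes tested. Of the member calls, 85.5% were higher, against 51.7% of the calls over all genes. The median log2 fold change was 0.69 for the members and 0.02 for all genes. Many members met the read rule through the treated SUM159 libraries, so they had to be higher there, and these figures support nothing by themselves. A choice on A549 reads was therefore added after the data were seen, although the filter on low counts still used SUM159 reads. Of 137 genes with LINC symbols that had 30 or more reads in at least 2 A549 libraries, 90 were tested in SUM159. Of these 44 (48.9%) were higher and 12 (13.3%) lower, with a median log2 fold change of 0.49. Of 13423 genes of any kind chosen in the same way, 12432 were tested, so the filter removed a larger part of the members. Of those tested 35.2% were higher and 40.4% lower, with a median of -0.06. A member of low count could pass the filter through the treated SUM159 libraries, so these shares are a description too. Chosen the other way, on SUM159 reads, 90 of 145 members were tested in A549, where the filter in turn used A549 reads. With PF-06873600 they gave 27 higher and 29 lower (30% and 32.2%), beside 31.0% and 28.9% of all genes chosen so. Over all 160 members tested, the shares for the combination lay near those of all genes, as given above. The same 90 members were more often higher in these comparisons than all genes chosen so. A member of low count could pass the filter through the combination libraries, so their shares are a description too. Against untreated cells 42.2% were higher and 26.7% lower, beside 35.8% and 32.1% of all genes chosen so. Against palbociclib the shares were 41.1% and 22.2%, beside 33.9% and 29.6%, and against indisulam 28.9% and 13.3%, beside 23.6% and 26.4%. With palbociclib they were 5.56% and 8.89%, beside 9.55% and 7.62%, and with indisulam 25.6% and 17.8%, beside 28.99% and 18.6%.

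The 43 members detected in SUM159 with PF-06873600 and in no other group had a median of 60.5 reads in a treated and 12.5 in an untreated SUM159 library. All were tested, 40 were called higher and none lower, which the way they were picked largely fixes. In A549, 20 of the 43 had 3 or fewer reads in every library and 8 had none. LINC01093 had 0 and 0 reads in untreated SUM159 and 34 and 32 with PF-06873600, at least 18.7-fold higher (limit of 3 reads over the group). LINC02957 went from 2 and 0 reads to 179 and 223, a pooled ratio of 171 (95% exact binomial interval 47.0 to 1417). LINC00520, described downstream of Src, PI3K and STAT3 in breast cells, went from 3 and 0 reads to 134 and 136, a ratio of 76.6 (25.9 to 374). It was also higher with the combination in A549, at 21 and 27 reads beside 0 and 2 in untreated cells. LINC02605, which starts 29784 bases from the start of the cytokine gene IL7 and runs away from it, went from 2 and 1 reads to 58 and 59. LINC00504 went from 3 and 2 reads to 74 and 105 (log2 fold change 4.86 ± 0.37, adjusted p = 1.81e-08).

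LINC00958 (ENSG00000251381, chr11:12961541-12989597, - strand) was the most abundant member in untreated SUM159, at 89.3 and 94.4 CPM, and stood at 96.7 and 97.4 CPM with PF-06873600 (log2 fold change 0.08 ± 0.06, adjusted p = 0.203). LINC02154 was the most abundant in treated SUM159, at 365 and 370 CPM against 23.7 and 21.6 CPM in untreated cells (log2 fold change 4.02 ± 0.07, adjusted p = 2.12e-15). LINC02056, which had no more than 1 read in any A549 library, rose by 3.46 ± 0.13 on the log2 scale (adjusted p = 9.59e-12). Few members fell. LINC00707 fell from 29.5 and 28.3 CPM to 2.75 and 2.22 (log2 fold change -3.55 ± 0.13, adjusted p = 6.47e-12). LINC01106 had 45 and 29 reads in untreated cells and 10 and 19 with PF-06873600, LINC01224 had 35 and 40, then 16 and 16, and LINC03015 had 59 and 89, then 32 and 33.

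The response to PF-06873600 could be set side by side in both lines, since they share no library. Of 113 members tested in both, 34 were higher in A549 and 61 in SUM159, and 25 were higher in both, or 73.5% and 41.0% of each list. In A549 34 were lower and in SUM159 12, and 6 were lower in both (17.6% and 50%). Of all 13607 genes tested in both, 29.7% were higher in A549 and 35.7% in SUM159, and those higher in both made up 45.2% and 37.7% of each list. Those lower in both made up 42.1% and 31.0%. The read rule favours members that were higher in SUM159, as 54.0% of the 113 were, so these shares are a description. A further 3 were higher in A549 and lower in SUM159 (LINC00511, LINC00707 and LINC01011), and 16 the other way, or 2.65% and 14.2% of the 113 beside 10.5% and 9.30% of all genes. Among the 25, the median log2 fold change was 2.58 in A549 and 1.59 in SUM159. LINC00973 had 27 and 29 reads in untreated A549 and 171 and 190 with the drug, and 7 and 7 then 57 and 88 in SUM159. LINC01602 was likewise higher in both (log2 fold change 2.96 ± 0.44 in A549 and 3.95 ± 0.44 in SUM159), as was LINC01133 (2.66 ± 0.20 and 1.76 ± 0.12). LINC00460 went from 8 and 9 reads to 49 and 79 in A549 and from 318 and 297 to 917 and 1055 in SUM159. The 6 members lower in both included LINC01355 (-1.90 ± 0.43 and -1.26 ± 0.36) and LINC03015 (-0.82 ± 0.22 and -1.42 ± 0.26).

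**Figure D4:**
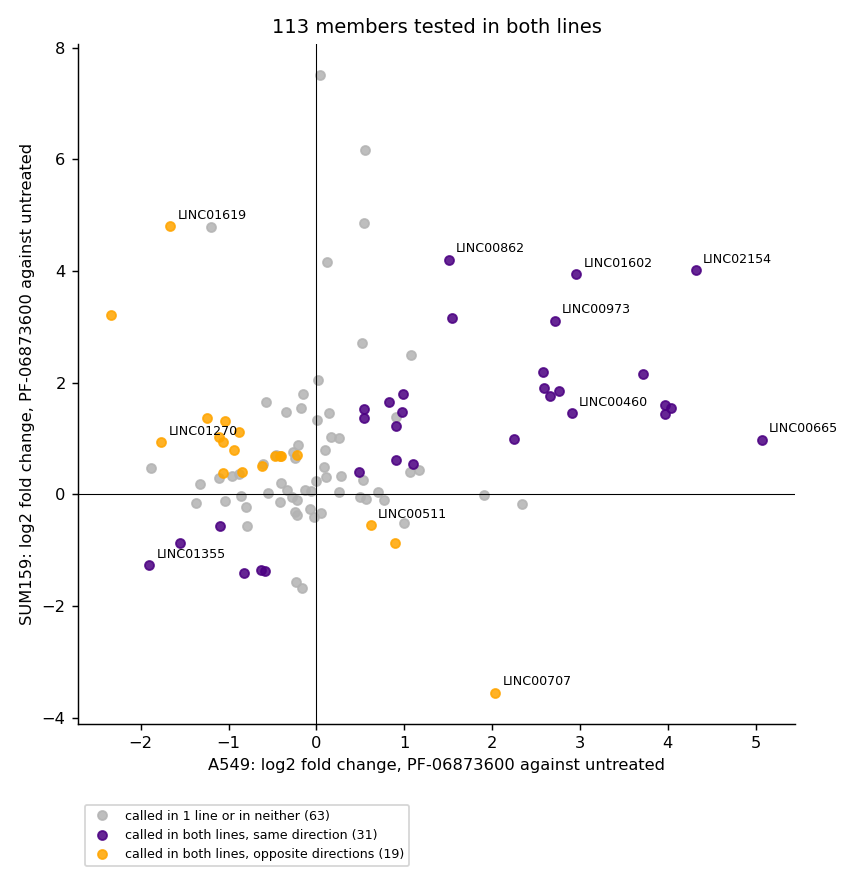
Log2 fold change with PF-06873600 against untreated cells in A549 (horizontal) and SUM159 (vertical) for the 113 members tested in both lines. Points are coloured by whether the member was called in both lines in the same direction (31), in both in opposite directions (19) or not (63). Most points called in both lines lie above 0 on the vertical axis.

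Promoter sequences were looked up for the members higher with PF-06873600 in both lines, because members that move together may share letters near their starts. RefSeq windows (GRCh38.p14, 250 bases before to 50 bases after a start) were matched by symbol for 145 of the 215 members, 21 of the 25 among them. Some genes have several windows. Both strands were searched for 7 motifs, whose matches may overlap one another. TGANTCA, the letters to which AP-1 (Fos and Jun) proteins are known to bind, was in a window of 7 of the 21 genes (33.3%), in 19 of the 145 members (13.1%) and in 9.37% of 27305 genes of any kind. GGGCGG, the GC box, was in 23.8%, 35.9% and 48.3% of the same groups, and CCAAT in 61.9%, 47.6% and 39.7%. The TATA box letters TATAAA were in 28.6%, 18.6% and 13.99%. The E box CACGTG was in 4.76%, 7.59% and 8.77%. The letters TTTGAA were in 19.05%, 16.6% and 18.2%, and the decamer that is repeated in p53 response elements in 14.3%, 5.52% and 8.06%. Median GC content of the windows was 47.7%, 53% and 58.7%. The 7 genes were picked by their response and are few, so the shares are a description, and a match is no binding site. No binding or chromatin was measured here.

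The windows of 4 of the 7 genes are printed to show how near the match lies to the start, with TGANTCA matches in capitals. They are the windows holding a match that lie within 2087 bases of the gene's annotated start. LINC00460 (chr13:106376314-106376613, + strand) has 2 matches, beginning at positions -44 and -17 from the RefSeq start, although that start lies 2087 bases inside the gene model used for the counts. LINC00973 (chr3:98980805-98981104, + strand) has 1 at -49, LINC02709 (chr11:9759484-9759783, - strand) 1 at -243 and LINC02762 (chr11:112270499-112270798, + strand) 1 at 37, downstream of the start.
LINC00460: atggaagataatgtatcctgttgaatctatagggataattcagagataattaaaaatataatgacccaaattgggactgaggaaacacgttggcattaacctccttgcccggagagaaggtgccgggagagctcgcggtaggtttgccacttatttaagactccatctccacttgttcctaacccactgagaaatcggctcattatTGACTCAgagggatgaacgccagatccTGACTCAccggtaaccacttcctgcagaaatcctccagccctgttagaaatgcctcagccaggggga
LINC00973: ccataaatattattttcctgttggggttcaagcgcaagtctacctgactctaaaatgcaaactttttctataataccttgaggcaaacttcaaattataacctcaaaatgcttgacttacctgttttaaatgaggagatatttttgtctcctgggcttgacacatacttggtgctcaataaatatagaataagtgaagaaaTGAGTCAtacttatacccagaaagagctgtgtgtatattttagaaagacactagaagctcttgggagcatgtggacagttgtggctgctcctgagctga
LINC02709: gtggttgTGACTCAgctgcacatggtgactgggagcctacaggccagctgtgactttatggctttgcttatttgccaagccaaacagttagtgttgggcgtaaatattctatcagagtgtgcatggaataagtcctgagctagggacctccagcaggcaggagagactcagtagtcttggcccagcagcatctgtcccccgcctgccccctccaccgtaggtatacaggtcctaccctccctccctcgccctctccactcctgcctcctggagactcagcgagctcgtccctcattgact
LINC02762: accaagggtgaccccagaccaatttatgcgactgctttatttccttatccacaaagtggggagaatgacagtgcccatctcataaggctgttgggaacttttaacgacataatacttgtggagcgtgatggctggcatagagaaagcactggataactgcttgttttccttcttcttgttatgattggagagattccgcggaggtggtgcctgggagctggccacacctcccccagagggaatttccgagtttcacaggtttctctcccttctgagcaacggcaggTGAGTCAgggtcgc
Beside these windows, LINC02709 stood at 0.816 and 1.00 CPM in untreated A549 and at 1.84 and 1.79 with PF-06873600, and at 0.965 and 1.13, then 3.57 and 3.74 CPM in SUM159. LINC02762 stood at 2.79 and 3.07, then 6.05 and 5.50 CPM in A549, and at 0.724 and 0.626, then 1.52 and 2.22 CPM in SUM159. Treated and untreated libraries of both genes did not overlap in either line, as for every member called with PF-06873600, so this adds no support.

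Where the lines differed in their response to PF-06873600 was tested with an interaction term over all 14 libraries. It called 84 of the 215 members, 66 more positive in SUM159 and 18 more positive in A549, beside 53% of all 17279 genes in either direction. Of the member calls 78.6% were more positive in SUM159, beside 48.8% of the calls over all genes, and many members met the read rule through the treated SUM159 libraries, which raises this term. The share of members called, 39.1%, differed with their reads. With a mean of 30 or more reads over the libraries it was 50.9% of 116 members, beside 63.1% of all genes, and under 30 reads 25.3% of 99 members, beside 20.96%. LINC00707 gave the smallest adjusted p among members, with a difference of -5.58 ± 0.18 on the log2 scale (adjusted p = 1.41e-14), since it rose in A549 and fell in SUM159. LINC01619 (ENSG00000257242, chr12:91984976-92142914, - strand) had 34 and 28 reads in untreated A549 and 12 and 7 with PF-06873600, and 8 and 10 then 284 and 316 in SUM159 (difference 6.48 ± 0.45, adjusted p = 5.2e-10). It overlaps BTG1, an antiproliferative gene on the same strand, and reads on shared bases may have been set aside as ambiguous. BTG1 itself moved in the same directions with PF-06873600. Its log2 fold change was -0.998 in A549 (adjusted p = 3.91e-09) and 0.65 in SUM159 (adjusted p = 6.46e-07).

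LINC02381 and LINC00963 fell in A549 and rose in SUM159. LINC02381 stood at 67.6 and 61.0 CPM in untreated A549, 33.5 and 37.7 with PF-06873600, 15.0 and 16.1 in untreated SUM159 and 20.1 and 21.1 with the drug (difference 1.26 ± 0.12, adjusted p = 5.59e-08). LINC00963 went from 62.3 and 60.6 to 46.9 and 46.1 CPM in A549 and from 16.2 and 16.9 to 27.0 and 26.1 in SUM159 (difference 1.08 ± 0.12, adjusted p = 1.79e-07). In both genes the untreated lines were further apart than the treated ones. LINC01270 and LINC01547 were of the same kind, falling in A549 by 1.77 and 1.06 and rising in SUM159 by 0.94 and 0.94 on the log2 scale. For LINC02154 no difference between the lines was called (-0.31 ± 0.58, adjusted p = 0.739).

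Members with a role described elsewhere were read off the same fits. LINC00511, described as growth-promoting in breast and lung cancers, rose in A549 with the combination (0.58 ± 0.09) and PF-06873600 (0.62 ± 0.09) and fell in SUM159 with PF-06873600 (-0.55 ± 0.08). LINC00261, which lies beside the endoderm factor gene FOXA2 and acts in endoderm differentiation, had 87 and 114 reads in untreated A549 and 24 and 33 with the combination (-1.81 ± 0.21, adjusted p = 3.46e-06). FOXA2 fell by 0.39 in the same comparison (adjusted p = 0.000827). With indisulam the pair parted, as LINC00261 fell by 0.96 and FOXA2 rose by 0.34 (adjusted p = 0.00259). With PF-06873600 LINC00261 and FOXA2 changed by -1.04 and -0.25 in A549, and by 1.31 and 0.38 in SUM159. LINC00467, whose transcript encodes a small mitochondrial protein, fell in A549 with the combination (-0.89 ± 0.16) and rose in SUM159 with PF-06873600 (0.69 ± 0.15). LINC00662 fell with indisulam (-0.41 ± 0.08), the combination (-0.66 ± 0.09) and PF-06873600 (-0.40 ± 0.08) in A549. LINC01503, known from squamous carcinomas, ranged from 54 to 80 reads over the A549 libraries and did not pass the test with any treatment (adjusted p from 0.254 to 0.726).

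Members were placed by the distance between starts. The median distance from a member's start to the nearest protein-coding start was 75774 bases, 92 members were over 100 kb away and 16 within 5 kb, 10 of them transcribed divergently from the neighbour. As many as 132 members overlap another gene model, 117 of them one on the other strand, and 26 overlap a protein-coding gene model. The library kit marks strand, but whether counting used it is not given in the sources used here. For the combination, the log2 fold changes of 121 members and of their nearest coding genes had a Pearson r of 0.33 and Spearman rho of 0.22, and for PF-06873600 in SUM159 they had 0.22 and 0.26 over 118 pairs. These are correlations across genes in shared libraries, given with no p. Member and neighbour changed in the same direction in only 61 of the 121 pairs and 64 of the 118. Within 5 kb the correlations were 0.39 and 0.38, and 0.43 and 0.46, over 12 pairs each, with the same direction in 6 and 8 pairs. LINC02747 and CCND1, the cyclin D1 gene 159611 bases away, both rose with the combination (2.86 ± 0.15 and 1.84 on the log2 scale). LINC01547 starts 84 bases from SLX9, and fell with the combination (-1.15 ± 0.18) where SLX9 changed by -0.06 (adjusted p = 0.65).

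A list of 35 long noncoding RNAs with other symbols was read beside the members. With the combination 11 of 32 tested were higher and 12 lower, and with PF-06873600 in SUM159 11 of 31 were higher and 10 lower. With PF-06873600 in A549 8 of 32 were higher and 14 lower, with indisulam 8 and 8, and with palbociclib 2 and 5. Against palbociclib the combination had 12 higher and 9 lower, and against indisulam 8 and 7. In untreated SUM159 10 of 33 were higher and 19 lower than in untreated A549, and in the response to PF-06873600 12 were more positive in SUM159 and 7 in A549. MEG3, an imprinted transcript, stood at a mean of 8.54 CPM in untreated A549, 14.7 with palbociclib, 37.8 with indisulam, 174 with the combination and 75.8 with PF-06873600. In SUM159 it stood at 7.96 CPM in untreated cells and 54.1 with PF-06873600. GAS5, the host of small nucleolar RNAs, stood at 259, 183, 185, 172 and 108 CPM in the same A549 groups, and at 106 and 66.1 CPM in SUM159.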

How the data were processed

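The authors sequenced poly(A)-selected, strand-marking libraries and deposited, per library, whole-number read counts on 60683 Ensembl genes, without normalization. The submitters' processing notes name HISAT2 2.2.1, HTSeq and GRCh38. How strand was used in counting and the annotation release are not given in the sources used here. Reads on several genes or of low mapping quality had been set aside. Symbols and coordinates of 60370 genes came from GENCODE release 44 (hg38).

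Members were chosen by read count, and members and lists were chosen with earlier results of these data known. CPM was reads divided by the library's total on genes. Totals ran from 13060374 to 21149256, and intervals and floors cover counting error only. Genes kept by filterByExpr were tested with edgeR 4.0.16 (R 4.3.3) by the quasi-likelihood F test with total-count scaling and Benjamini-Hochberg adjustment over all genes tested (threshold 0.05). The A549 model held 10 libraries, the SUM159 model 4 and the model of both lines 14. SE was taken from the F statistic, as the size of the log2 change over its root. With 1 to 3 pooled reads in the lower group, a ratio of pooled levels with a 95% exact binomial interval is given, and with 0 reads a lower bound from 3 reads over the group. The libraries of a group differed by more than sampling noise (chi-square per degree of freedom from 1.61 to 9.57), and all were kept.

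Named members were the 8 of highest mean CPM per kb of exon, the 4 that rose and the 4 that fell most in each comparison of a treatment with untreated cells (called, no overlap between groups, at least 2 CPM on average in the higher group), the 5 of highest mean CPM found in each line alone, the 4 with the smallest adjusted p in the difference between the lines, and members with a known role. LINC00941 had no read in any library, and LINC00473 and LINC00673 were not analysed here. Other members named (LINC00958, LINC01093, LINC02709, LINC02762, LINC01011 and those at the edge of the rule) were chosen after their values were seen.

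On simulated counts the test for SUM159 recovered 87.0% of genes changed by 1 on the log2 scale and 97.4% of those changed by 2, with 4.50% of calls false (14685 genes), and the test for the combination 73.0% and 97.0%, with 3.26% false (15265 genes). The simulation gave every gene the same spread and changed few genes, whereas the measured comparisons called 73.7% and 65.2% of all genes. Its shares cover genes of all levels and were not counted for the members, many of which have few reads. Alternatives were DESeq2 1.42.0, TMM scaling, no filter on low counts, a model of the compared groups alone, the replicate number as a block, leaving out each library in turn, other detection limits, and the summed level without the 3 most abundant members. A block with crossed palbociclib numbers and a choice of members on A549 reads alone were added after the data were seen. Python 3.11.15, pandas 2.3.3, scipy 1.17.1 and matplotlib 3.10.9 were used.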

Additional observations from a re-analysis of the deposited data

Results flagged for a closer look

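The response to PF-06873600 differed between A549 and SUM159 for 84 of 215 members by the interaction term of edgeR's quasi-likelihood test (adjusted p under 0.05), beside 53% of all genes tested. Among the members described for the smallest adjusted p, the difference (SUM159 minus A549, log2 scale) was -5.58 for LINC00707, 6.48 for LINC01619, 1.26 for LINC02381 and 1.08 for LINC00963. All 4 moved in opposite directions in the 2 lines. Their treated and untreated libraries did not overlap in either line. The same held for every member called with PF-06873600, so it adds no support. Groups of 2 libraries are too small for a test of single outlying libraries, and none was made.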

How the results depend on the processing

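No member named in the text changed direction under any alternative, and over all alternatives 721 of their fold changes stayed on their side of the threshold, 31 lost the call and 1 gained it. DESeq2 gave fewer calls, with 4 members lower for palbociclib, 27 higher for indisulam, and 25 higher and 18 lower for the combination against indisulam. Calls over all genes fell likewise. In these 3 comparisons DESeq2 called 9.58%, 33.5% and 33.7% of all genes in either direction, beside 15.7%, 45.5% and 46.0% in the main setting. A model of the compared groups alone called 2 members higher and 5 lower for palbociclib, beside 6.62% of all genes in either direction. Leaving out 1 library at a time gave 3 to 8 members higher and 5 to 12 lower for palbociclib, the lowest without its second library. It gave 25 to 33 higher and 21 to 24 lower for the combination against indisulam, with 25 higher without the first combination library, 21 lower without the second and 22 lower without the first indisulam library. For PF-06873600 it gave 79 to 99 higher and 13 to 20 lower in SUM159, where 85.5% of member calls were higher in the main setting and 82.3% to 88.4% without 1 library. At a limit of 10 reads in both libraries 162, 150, 181, 197 and 170 LINC genes were detected in A549 (untreated, palbociclib, indisulam, combination, PF-06873600) and 161 and 252 in SUM159 (untreated, PF-06873600), and at 100 reads 44, 40, 39, 42 and 38, and 28 and 46. Without the 3 most abundant members the mean summed level was 1091, 1031, 1120, 1144 and 998.7 CPM in A549 and 1291 CPM in SUM159 with PF-06873600, and with TMM scaling it was 1441 CPM in untreated A549, 1288 with indisulam, 1359 with the combination and 1206 with PF-06873600. The cause of these shifts was not tested. Without a filter on low counts the median log2 fold change of all genes in SUM159 was 0.25.

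Replicate numbers do not pair the samples: deviations of same-numbered libraries had correlations from -0.27 (palbociclib and untreated A549) to 0.23 (indisulam and untreated A549). A fit with the replicate number as a block kept 14 of 15 member calls for palbociclib, and all 110 for PF-06873600 in SUM159, where it called 96 members higher and 17 lower, and no count of member calls moved by over 1.5 times under it. With crossed palbociclib numbers, added after the data were seen, the block kept all 15 member calls for palbociclib. It called 8 members higher and 10 lower for palbociclib, and 61 higher and 43 lower for the combination against palbociclib. Of all genes it called 19.2% and 63.3% in either direction, beside 15.7% and 60.4% in the main setting. Depth limits the members near the 30-read rule, since thinning to the smallest library lowered the members detected in SUM159 with PF-06873600 from 139 to 111.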
